A study of Homo sapiens with 6 samples.

Results

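The 7 genes described here encode the machinery that makes selenocysteine on its own transfer RNA and inserts it into proteins: PSTK, SEPSECS, SEPHS1, SECISBP2, EEFSEC, TRNAU1AP and SCLY. They were chosen by name from the pathway, with earlier results of these data known. Each has a row among the 17687 genes of the deposited table. The study asked how sodium selenite acts on thyroid cancer cells and whether an antioxidant changes that action. RNA was sequenced from KHM-5M, an established human cell line of anaplastic thyroid cancer, in 3 groups of 2 libraries. The SS group received sodium selenite, and the SS+NAC group received sodium selenite with the thiol antioxidant N-acetylcysteine. The labels name the remaining group only as control. The paper gives phosphate-buffered saline as the control treatment of other assays but names none for the sequenced cells. All groups were the same cultured line, which is a limit to what they model. The labels give neither a time nor a dose with a unit. The paper's methods call the 2 libraries of a group biological replicates, but neither they nor the labels say that these came from separate cultures, so p-values measure the spread between these libraries only. The libraries held 17645545 and 22016655 expected counts in control, 23493415 and 23810056 in SS, and 23682740 and 22617180 in SS+NAC.

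Selenocysteine has no codon of its own and is placed at UGA, which otherwise ends translation. Its transfer RNA is first charged with serine; PSTK phosphorylates that serine, and SEPSECS replaces the phosphate with selenium from selenophosphate. SECISBP2 binds the SECIS hairpin in the 3′ untranslated region of a selenoprotein mRNA and works with the elongation factor EEFSEC, which brings the charged transfer RNA to the ribosome, while SCLY frees selenium from selenocysteine for reuse.

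The labelled cell type was compared with marker genes in TPM, the transcript level scaled for length and depth. PAX8, a transcription factor of the thyroid follicular lineage, lay between 104 and 134 TPM in the 6 libraries. Of the other thyroid markers, FOXE1 reached 1.59 TPM, TG 0.30, SLC5A5 0.69 and NKX2-1 0.20, and TSHR had no row. Keratins KRT8 and KRT18 and the mesenchymal filament VIM were high, with VIM between 5744 and 6621 TPM, whereas KRT19 was at most 2.19 TPM and the epithelial adhesion genes CDH1 and EPCAM were at most 0.29 and 6.07 TPM. COL1A1 lay between 167 and 273 TPM while the other fibroblast genes COL1A2 and DCN were at most 0.04 and 0.19 TPM and LUM lay between 4.17 and 8.80 TPM. CD68 lay between 70.5 and 109 TPM while the leukocyte gene PTPRC was at most 0.77 TPM. The thyroid markers named here, other than PAX8, were thus low or without a row. Some markers also differed between SS and control in the edgeR fit described below: KRT8 rose by 0.48, KRT18 by 0.44 and VIM by 0.40 (edgeR adjusted p = 0.0111, 0.0152 and 0.00935), and CDH2 fell by 0.31 and ZEB1 by 0.95 (edgeR adjusted p = 0.00748 and 0.000245). KRT8, KRT18 and VIM were not called without control replicate 1 or SS replicate 2, nor CDH2 without control replicate 2 or SS replicate 2. When a library was left out, KRT8 ranged from 0.33 to 0.61, KRT18 from 0.29 to 0.57, VIM from 0.31 to 0.48 and CDH2 from -0.36 to -0.23. With a term for transcript length only ZEB1 stayed called (-0.57, edgeR adjusted p = 0.00995). In SS+NAC against SS, edgeR called KRT8 (-0.65), KRT18 (-0.71) and VIM (-0.49) lower. ZEB1 (0.91), CDH2 (0.36) and COL1A1 (0.34) were called higher there. With the length term, KRT8 (-0.44), KRT18 (-0.41), VIM (-0.30) and PAX8 (-0.29) were called lower in SS+NAC against SS, and ZEB1 (0.55) and CD68 (0.33) higher. These were named after their values were seen. A change in the number of cells and a change in RNA per cell cannot be told apart in these bulk libraries.

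The codon that the machinery serves can be shown in the coding sequences of GENCODE release 29. The following stretches run 5′ to 3′ on the coding strand, written as DNA, with the in-frame TGA in capitals. They come from a selenophosphate synthetase, 2 glutathione peroxidases and SELENOM, and they are shown because SEPHS1 is the relative of SEPHS2 that lacks this codon.
SEPHS2: ggcatgaagggcTGAggctgcaaggtcccg
GPX1: gtggcgtccctcTGAggcaccacggtccgg
GPX4: gtggcctcccagTGAggcaagaccgaagta
SELENOM: acctgcgggggaTGAcagctgaaccgccta
SEPHS1: gaactgaagggcACAggctgcaaagtgccc
In SEPHS2 the TGA is codon 60 of 448, on the minus strand of chromosome 16 of GRCh38 at chr16:30445548-30445550. Codon 29 of the 392 codons of SEPHS1, ACA, aligned with it (capitals in the SEPHS1 stretch, chr10:13344864-13344866, minus strand), and the coding sequence of SEPHS1 held 0 in-frame TGA codons. Over 391 aligned codons the pair shared 68.7% of their bases. The TGA is codon 49 of 203 in GPX1 (chr3:49358132-49358134, minus strand), 73 of 197 in GPX4 (chr19:1105403-1105405, plus strand) and 48 of 145 in SELENOM (chr22:31105951-31105953, minus strand).

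The machinery genes called in SS against control differed in direction. TRNAU1AP, PSTK and EEFSEC were higher in SS than in control, and SECISBP2 was lower, so 4 of 7 members were called, 3 higher and 1 lower. The count depended on single libraries and fell without control replicate 1, control replicate 2 or SS replicate 2. The number of all genes called also fell in these fits. When a library was left out, the log2 fold changes ranged from 0.41 to 0.66 for TRNAU1AP, 0.49 to 0.66 for PSTK and 0.23 to 0.38 for EEFSEC. For SECISBP2 the range was -0.35 to -0.29. A gene is called here when its edgeR quasi-likelihood p, adjusted after Benjamini and Hochberg over the 14005 tested genes, was at most 0.05, and all 7 members were tested. The same test called 40.0% of all tested genes in this comparison, 18.6% higher and 21.4% lower, and the members' median log2 fold change was 0.12, against 0.00 over all tested genes. Their share therefore stands beside a background in which a large part of the transcriptome was called. When a term for transcript length was added for each library, 9.23% of all genes and 0 of 7 members were called, with 3 members at an unadjusted p under 0.05 in edgeR. DESeq2 called 3 members (39.1% of the genes it gave an adjusted p), and limma on log2(TPM + 0.5) called 2 (42.8%). These 2 were SECISBP2 and SEPSECS, both lower, so none of the 3 higher calls was made on TPM.

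Cells given SS+NAC were set against both other groups. No group received N-acetylcysteine without selenite. An effect of N-acetylcysteine itself and a changed response to selenite therefore cannot be told apart, for the members or for the other genes below. Against control, edgeR called 0 of 7 members, with 1 at an unadjusted p under 0.05 (SEPSECS, named after its value was seen), while 2.01% of all genes were called. The fit with the length term, DESeq2 and limma on TPM also called 0 members, with 1, 0 and 0 at an unadjusted p under 0.05, and they called 2.01%, 2.30% and 1.07% of all genes. Against SS, 5 of 7 members were called: SECISBP2 and SEPSECS were higher in SS+NAC, and EEFSEC, TRNAU1AP and SCLY were lower. Without SS replicate 2 the count was lower, as EEFSEC and SCLY were no longer called, and the number of all genes called fell too. In the fit of all 6 libraries, all genes were called at 42.7%, with 23.1% higher and 19.6% lower. The members' median was -0.29 against 0.03 over all tested genes. With the length term 2 members were called, against 14.4% of all genes. DESeq2 called 5 members (40.0% of genes) and limma on TPM called 3 (50.8%). SS against control and SS+NAC against SS both draw on the SS libraries, so opposite signs in them are not separate observations.

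**Figure D1:**
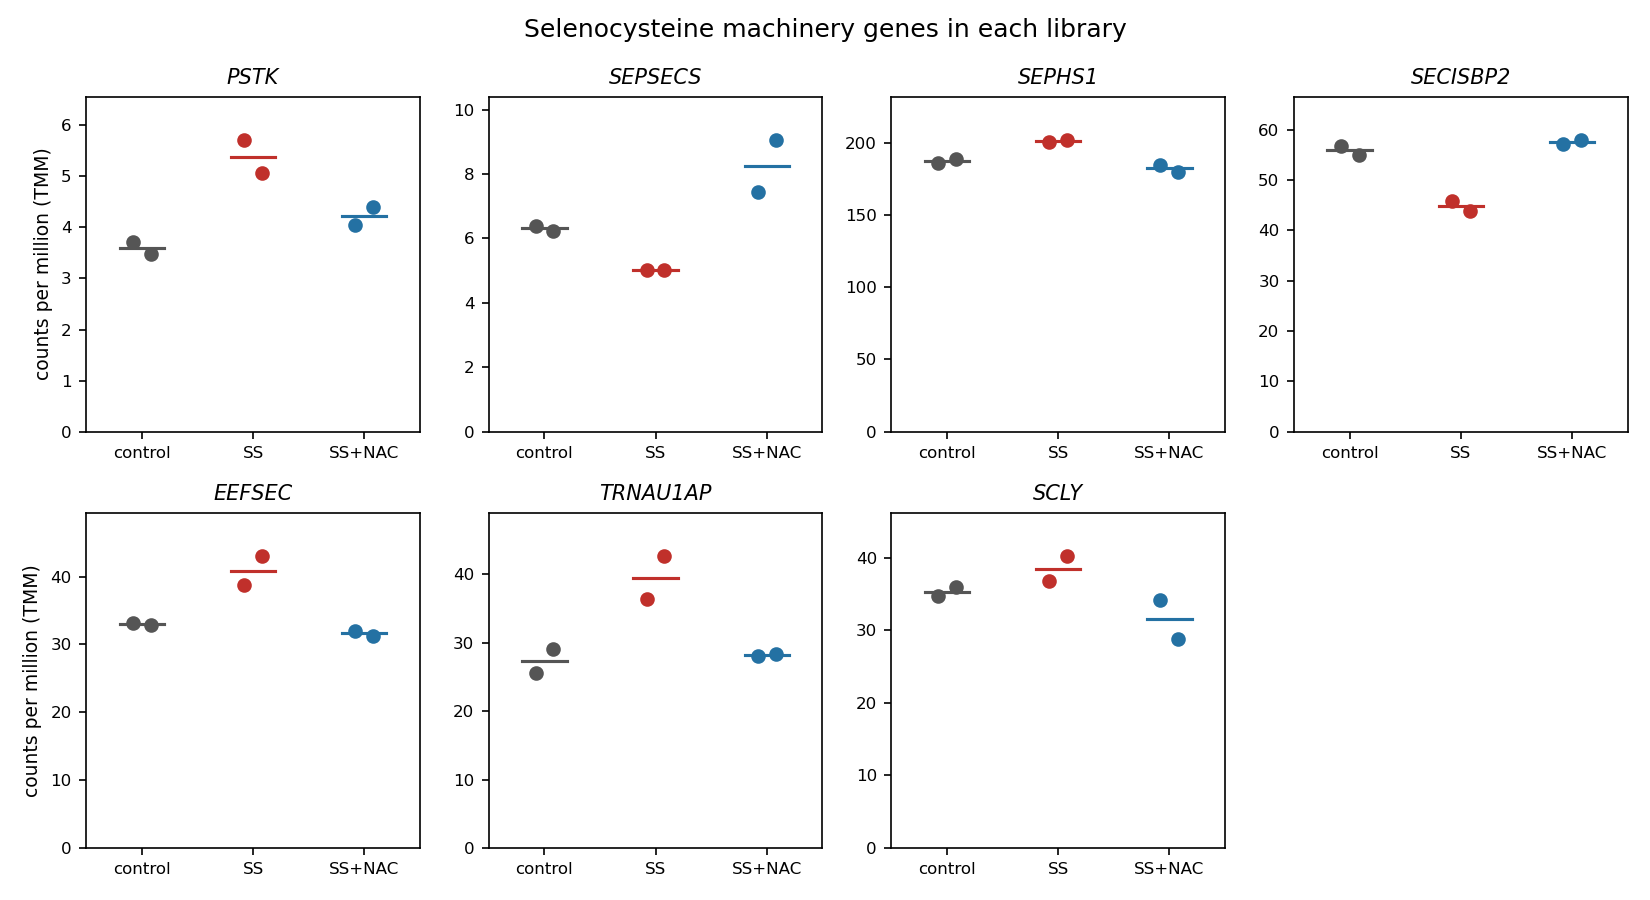
CPM (counts scaled to library size with TMM factors) of the 7 members, with a point for each library and a line at the mean of each group of 2; each vertical axis starts at 0. SECISBP2 is lowest and TRNAU1AP, EEFSEC and PSTK are highest in the SS libraries, while SEPHS1 stays between 180.0 and 202 CPM.

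PSTK, the kinase that acts on the serine-charged transfer RNA, lies on chromosome 10 of GRCh38 at chr10:122954381-122997513, plus strand. It was at 3.72 and 3.48 CPM in control, 5.71 and 5.07 in SS, and 4.06 and 4.40 in SS+NAC, from 67 to 131 counts per library. The SS libraries were the highest and overlapped with neither other group. The log2 fold change of SS against control was 0.58 (SE 0.16, edgeR adjusted p = 0.0168). The call was lost without control replicate 1, control replicate 2 or SS replicate 1, at 0.63, 0.56 and 0.49. It was lost in DESeq2 (0.59, adjusted p = 0.0876) and with the length term (0.21, edgeR adjusted p = 0.495). It was also lost on the TPM scale (0.29, limma adjusted p = 0.166), where it stood at 0.51 relative to the median of all genes. SS+NAC against SS gave -0.35 (SE 0.16, edgeR adjusted p = 0.0979), and 0.02 with the length term, so the direction depended on that term.

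SEPSECS, the synthase that completes selenocysteine on the transfer RNA, lies at chr4:25120014-25160442 on the minus strand of GRCh38 and has the longest transcript of the 7, with an effective length of 5868 bases. It was at 6.39 and 6.24 CPM in control, 5.01 and 5.02 in SS, and 7.45 and 9.05 in SS+NAC. The groups did not overlap, with SS lowest and SS+NAC highest, on 110 to 218 counts per library. SS+NAC exceeded SS by 0.72 on the log2 scale (SE 0.15, edgeR adjusted p = 0.00311), the largest difference among the members in the fit without the length term. That difference was 0.37 with the length term (edgeR adjusted p = 0.105). SS against control was -0.33 (SE 0.15, edgeR adjusted p = 0.111) and 0.03 with the length term. SS+NAC against control was 0.39 (SE 0.14, edgeR adjusted p = 0.224), and ranged from 0.24 to 0.52 when a library was left out. Limma on TPM did call SEPSECS lower in SS than in control, at -0.47 (adjusted p = 0.0437), or -0.25 relative to the median of all genes on that scale.

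SEPHS1, the relative of selenophosphate synthetase printed above, lies at chr10:13317424-13348298 on the minus strand. It was at 186 and 188 CPM in control, 200.3 and 202 in SS, and 185 and 180.0 in SS+NAC. These were the deepest values of the set, with 3350 to 4597 counts per library, and edgeR called no difference for SEPHS1. Its log2 fold changes were 0.10 for SS against control (SE 0.07, edgeR adjusted p = 0.271), -0.04 for SS+NAC against control (SE 0.07, edgeR adjusted p = 0.828) and -0.14 for SS+NAC against SS (SE 0.07, edgeR adjusted p = 0.128). On the TPM scale all of these signs turned, to -0.12, 0.07 and 0.19, the last of them called by limma (adjusted p = 0.0402). TPM moved the median of all genes by -0.22, 0.05 and 0.30 in the same comparisons, and relative to these medians SEPHS1 stood at 0.10, 0.02 and -0.11. SEPHS2, itself a selenoprotein and the enzyme that makes selenophosphate, was at 63.5 and 63.5 CPM in control, 74.8 and 71.9 in SS, and 57.3 and 58.8 in SS+NAC. SEPHS2 rose by 0.21 in SS (SE 0.07, edgeR adjusted p = 0.0377). The call was lost without control replicate 1 or 2 or SS replicate 1 or 2, while the value ranged from 0.18 to 0.24 when a library was left out. With the length term SEPHS2 was at 0.11 and not called (edgeR adjusted p = 0.368). On the TPM scale its sign turned to -0.07, or 0.15 relative to the median of all genes. SS+NAC against SS was -0.34 (SE 0.07, edgeR adjusted p = 0.00357), and -0.25 with the length term (edgeR adjusted p = 0.0340). On the TPM scale that value was -0.0017, or -0.30 relative to the median of all genes.

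Among the decoding factors, SECISBP2, which binds the SECIS element, lies at chr9:89318506-89359662 on the plus strand. It was at 56.7 and 55.0 CPM in control, 45.8 and 43.8 in SS, and 57.2 and 57.9 in SS+NAC. Both SS libraries lay below all others, and the SS+NAC libraries lay just above control. SECISBP2 fell by 0.32 on the log2 scale in SS against control (SE 0.07, edgeR adjusted p = 0.00624) and was 0.36 higher in SS+NAC than in SS (SE 0.07, edgeR adjusted p = 0.00292). SS+NAC against control was 0.04 (SE 0.07, edgeR adjusted p = 0.818). The call against control was lost without control replicate 1, control replicate 2 or SS replicate 2, at -0.30, -0.31 and -0.29. It was also lost with the length term (-0.20, edgeR adjusted p = 0.106), whereas SS+NAC against SS stayed called with that term (0.24, edgeR adjusted p = 0.0425). Its paralog SECISBP2L was at 28.9 and 31.0 CPM in control, 19.4 and 18.2 in SS, and 27.9 and 39.4 in SS+NAC. SECISBP2L fell by 0.67 in SS (SE 0.14, edgeR adjusted p = 0.00429) and was 0.84 higher in SS+NAC than in SS (edgeR adjusted p = 0.00119), and with the length term neither was called (edgeR adjusted p = 0.324 and 0.0658).

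EEFSEC, the elongation factor for selenocysteine, lies at chr3:128153454-128408646 on the plus strand. It was at 33.1 and 32.8 CPM in control, 38.7 and 43.0 in SS, and 32.0 and 31.3 in SS+NAC. The SS libraries were above all others, opposite to SECISBP2. EEFSEC rose by 0.31 in SS (SE 0.08, edgeR adjusted p = 0.0124) and was at -0.37 in SS+NAC against SS (SE 0.08, edgeR adjusted p = 0.00460). With the length term these were 0.18 (edgeR adjusted p = 0.172) and -0.25 (edgeR adjusted p = 0.0465). The call against control was lost without control replicate 1, control replicate 2 or SS replicate 2, at 0.31, 0.33 and 0.23. The call against SS was lost without SS replicate 2, at -0.29. On the TPM scale both calls were lost, at 0.06 and -0.06 (limma adjusted p = 0.612 and 0.587), or 0.28 and -0.36 relative to the median of all genes. Exons of the opposite-strand gene RUVBL1 cover 15.3% of the exon bases of EEFSEC, and since the sources used here do not say whether reads were counted by strand, part of its reads could belong to RUVBL1.

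TRNAU1AP, a protein associated with the selenocysteine transfer RNA, lies at chr1:28553085-28578545 on the plus strand. It was at 25.6 and 29.1 CPM in control, 36.4 and 42.6 in SS, and 28.1 and 28.4 in SS+NAC. SS stood above both other groups, which overlapped each other. TRNAU1AP rose by 0.53 in SS (SE 0.10, edgeR adjusted p = 0.00223) and was at -0.48 in SS+NAC against SS (SE 0.10, edgeR adjusted p = 0.00300). It was the member whose calls in both comparisons held in each of the 6 fits that left out a library, with ranges of 0.41 to 0.66 and -0.59 to -0.37. With the length term the values were 0.32 and -0.30, just past the threshold (edgeR adjusted p = 0.0558 and 0.0520). On the TPM scale both calls were lost too, at 0.25 and -0.14 (limma adjusted p = 0.0524 and 0.224), or 0.47 and -0.44 relative to the median of all genes. SS+NAC against control was 0.04 (SE 0.10, edgeR adjusted p = 0.866) and turned to -0.04 without control replicate 1.

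SCLY, the lyase that recycles selenium, lies at chr2:238060889-238099413 on the plus strand. It was at 34.7 and 36.0 CPM in control, 36.9 and 40.2 in SS, and 34.2 and 28.8 in SS+NAC. SS+NAC replicate 2 was the lowest library. The call was in SS+NAC against SS, at -0.29 (SE 0.10, edgeR adjusted p = 0.0321), while SS against control was 0.12 (SE 0.10, edgeR adjusted p = 0.338) and SS+NAC against control was -0.17 (SE 0.10, edgeR adjusted p = 0.425). When a library was left out, SS against control ranged from 0.06 to 0.18 and SS+NAC against control from -0.30 to -0.05. The call in SS+NAC against SS was lost without SS replicate 2, SS+NAC replicate 2 or control replicate 1, at -0.23, -0.17 and -0.29. It was lost with the length term too (-0.24, edgeR adjusted p = 0.106). On the TPM scale the value was 0.04, or -0.26 relative to the median of all genes. The read-through gene UBE2F-SCLY shares 19.7% of the exon bases of SCLY on the same strand and has no row of its own, so reads of the read-through transcript could be counted in SCLY.

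**Figure D2:**
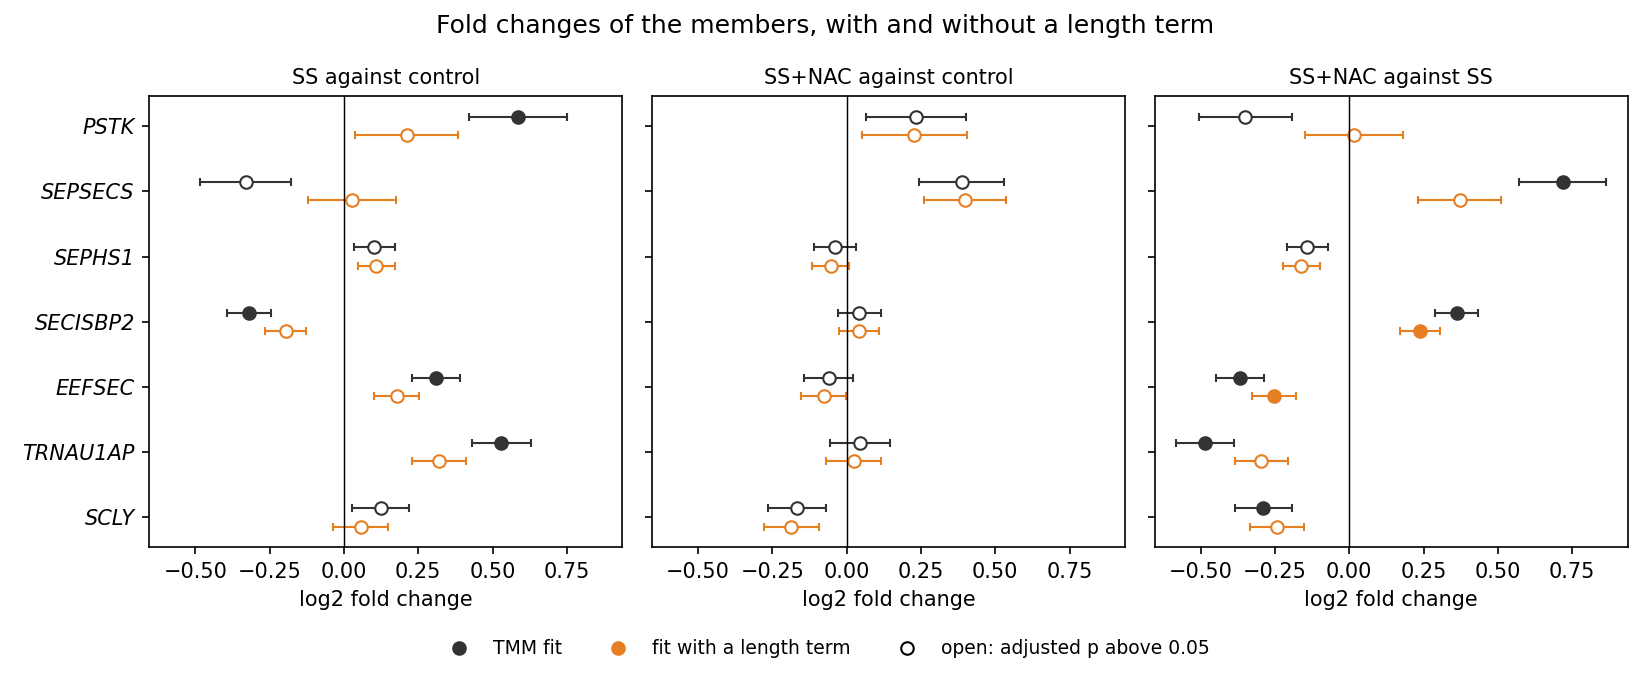
Log2 fold changes of the 7 members in the 3 comparisons, with bars of 1 standard error, from the TMM fit (dark) and the fit with a length term for each library (orange); filled points have an edgeR adjusted p of at most 0.05. The TMM fit fills 4, 0 and 5 points, and the fit with the length term fills 0, 0 and 2.

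The members' changes ran in the order of transcript length. From the shortest effective length to the longest the order was PSTK (1212 bases), TRNAU1AP (1884), EEFSEC (2218), SCLY (2541), SEPHS1 (2916), SECISBP2 (3611) and SEPSECS (5868), and the log2 fold changes of SS against control decreased in exactly that order. Spearman's rho was -1.0 across the 7 genes, -0.68 across the 14005 tested genes and, with the length term, -0.89 across the 7 and -0.00 across all tested genes. In SS+NAC against SS it was 0.89 across the 7 and 0.64 across all tested genes (0.64 and -0.02 with the length term), and in SS+NAC against control 0.07 and -0.04. Genes in these correlations share the same libraries and are not independent replicates. Split into 8 classes of equal size by length, all tested genes had a median log2 fold change of 0.46 in the shortest class and -0.46 in the longest in SS against control. Set against the median of its own length class, TRNAU1AP stood 0.25 higher in SS than in control, above 89.5% of the genes of that class. EEFSEC stood 0.16 above its class median, and SECISBP2 stood at -0.24 with 17.0% of its class below it. SEPSECS was at -0.03 from its class median in that comparison, and in SS+NAC against SS it was 0.42 above it, with 91.1% of the class below. The part that length, or RNA quality, had in the members' changes was not tested.

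**Figure D3:**
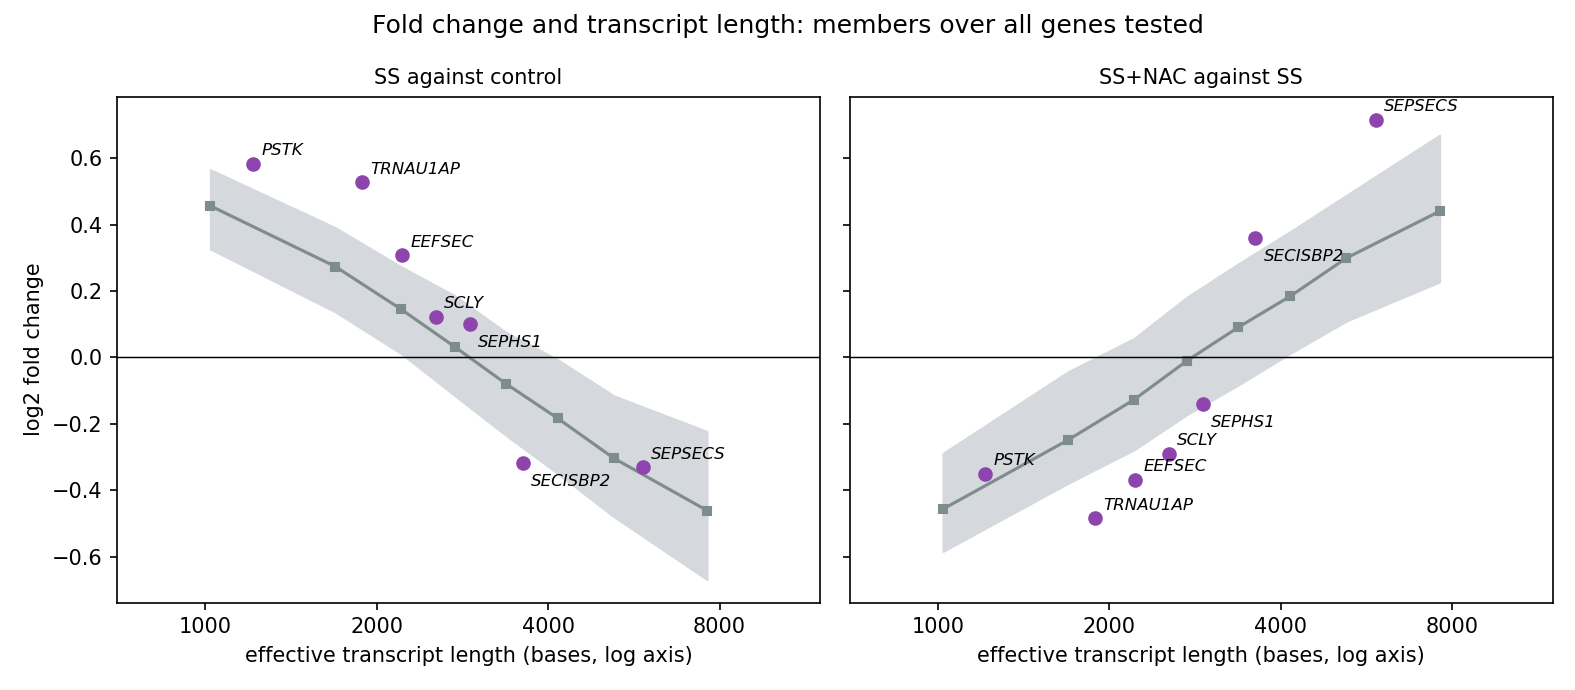
Log2 fold change of the members (purple points) against effective transcript length in bases (log axis), over all 14005 tested genes in 8 length classes: the grey squares are class medians at the median length of the class, and the grey band spans the quartiles. The members slope down with length in SS against control and up in SS+NAC against SS, as the class medians do from 0.46 to -0.46 and from -0.46 to 0.44.

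Levels were compared between genes in TPM, which allows for the length of a gene but not for a trend with length that differs between libraries. In control the order was SEPHS1 (124 ± 0.77, SD, n = 2), SECISBP2 (30.7 ± 0.76), EEFSEC (29.1 ± 0.54), TRNAU1AP (28.6 ± 2.2), SCLY (27.4 ± 0.33), PSTK (5.80 ± 0.43) and SEPSECS (2.14 ± 0.049). TRNAU1AP overlapped with both of its neighbours, EEFSEC and SCLY, and the other neighbours did not overlap. In SS, SECISBP2 moved from the place after SEPHS1 to below SCLY, at 20.3 ± 1.8 TPM against 24.6 ± 0.15 for SCLY, 30.2 ± 0.55 for EEFSEC and 34.0 ± 1.5 for TRNAU1AP, with no overlap between neighbours. On log2 TPM this was a change of -0.59, or -0.37 relative to the median of all genes. In the count fit with the length term the change of SECISBP2 was -0.20 and not called (edgeR adjusted p = 0.106). In SS+NAC it again followed SEPHS1, at 32.4 ± 1.7 TPM, and overlapped with TRNAU1AP at 30.8 ± 1.8. SEPHS1 alone made up between 48.0% and 50.4% of the summed TPM of the 7 members in the 6 libraries. The enzymes that act on the charged transfer RNA were the scarcest transcripts: PSTK lay between the percentiles 45.6 and 53.4 of all genes of the table and SEPSECS between 34.8 and 38.6, against 92.0 to 92.9 for SEPHS1.

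Ratios of TPM within a library compared the levels of partners. The ratio of SECISBP2 to EEFSEC, which act together at the ribosome, was 1.06 and 1.05 in control, 0.724 and 0.621 in SS, and 1.10 and 1.13 in SS+NAC. The ratio of PSTK to SEPSECS, which act in sequence on the transfer RNA, was 2.81 and 2.61 in control, 5.42 and 4.85 in SS, and 2.65 and 2.44 in SS+NAC. Both SS libraries thus lay outside the range of the other 4 in each ratio. The ratio of SEPHS1 to SEPHS2 was 2.29 and 2.36 in control, 2.203 and 2.29 in SS, and 2.64 and 2.49 in SS+NAC, so here the SS+NAC libraries lay above the other 4. In each of these ratios the gene in the numerator and that in the denominator differ in length. With the length term, SS against control was 0.21 for PSTK and 0.03 for SEPSECS, and edgeR called neither. It was -0.20 for SECISBP2 and 0.18 for EEFSEC in that fit, again without a call. The part that length had in these ratios was not tested.

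**Figure D4:**
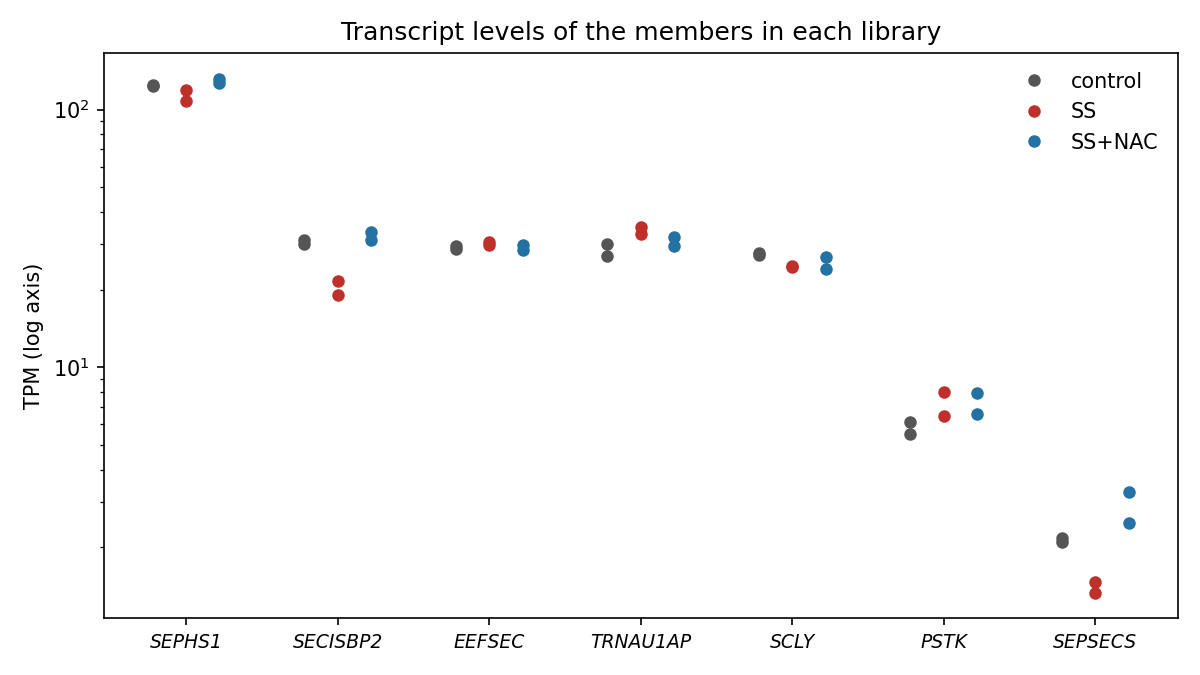
TPM of the 7 members in each of the 6 libraries on a log axis, ordered by the control mean and coloured by group. SECISBP2 drops from 30.7 TPM in control to 20.3 in SS, and SEPSECS is the lowest gene in every library.

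The promoters of TRNAU1AP, EEFSEC and SECISBP2 are given because these decoding genes moved in opposite directions in SS. They come from RefSeq on GRCh38.p14 and span 250 bases before to 50 bases after a gene's start. A window was found for 6 of the 7 members, and SEPSECS had no entry. Capitals mark GGGCGG (GC box), CCAAT and CCGGAAG (ETS core), each searched on both strands. The windows are chr1:28552835-28553134, chr3:128153231-128153530 and chr9:89318250-89318549, all on the plus strand.
TRNAU1AP: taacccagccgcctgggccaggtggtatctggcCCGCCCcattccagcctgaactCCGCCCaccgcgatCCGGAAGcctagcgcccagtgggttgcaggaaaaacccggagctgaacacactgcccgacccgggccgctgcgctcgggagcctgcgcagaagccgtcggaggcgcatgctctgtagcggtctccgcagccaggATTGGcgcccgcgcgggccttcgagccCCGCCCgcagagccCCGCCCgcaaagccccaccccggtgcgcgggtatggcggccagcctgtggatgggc
EEFSEC: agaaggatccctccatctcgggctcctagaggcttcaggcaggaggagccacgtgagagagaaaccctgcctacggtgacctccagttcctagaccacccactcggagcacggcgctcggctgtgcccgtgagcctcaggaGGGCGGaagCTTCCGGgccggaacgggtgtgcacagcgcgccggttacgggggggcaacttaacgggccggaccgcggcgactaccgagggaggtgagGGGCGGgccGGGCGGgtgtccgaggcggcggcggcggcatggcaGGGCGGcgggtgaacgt
SECISBP2: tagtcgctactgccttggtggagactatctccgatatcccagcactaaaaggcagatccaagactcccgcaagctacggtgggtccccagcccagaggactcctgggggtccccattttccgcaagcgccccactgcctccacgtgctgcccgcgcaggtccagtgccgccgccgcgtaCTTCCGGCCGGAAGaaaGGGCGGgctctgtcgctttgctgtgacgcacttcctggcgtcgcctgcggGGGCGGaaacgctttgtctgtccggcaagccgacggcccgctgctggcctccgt
The GC box occurred 4 times in the TRNAU1AP window, 4 times in that of EEFSEC and 2 times in that of SECISBP2, and 45.0% of all 35116 promoters held it. The ETS core was found 1, 1 and 2 times, against a share of 10.3% of promoters with any, and CCAAT 1, 0 and 0 times (34.6%). TGACNNNGC, the core of the antioxidant response element, had 0 matches in these 3 windows and occurs in 13.3% of promoters; CACGTG (7.26%) was found in those of EEFSEC and SECISBP2, 1 time each. SECISBP2 has a further annotated start, whose window (chr9:89318601-89318900, not printed) held TGACNNNGC 2 times, and the SCLY window held it 1 time. These matches are letters in a window and say nothing of binding.

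For each member, the tested genes with the most similar profile were found by the root mean square difference of log2 CPM, centred over the 6 libraries, among the 9527 genes whose mean reached 10 CPM. TRNAU1AP was nearest to TBCA (0.024), THYN1 (0.029) and MDH2 (0.033), and EEFSEC to PEPD (0.0069), ATG3 (0.011) and IMPDH2 (0.019). SECISBP2 was nearest to NIPA1 (0.012), XIAP (0.015) and KLHDC10 (0.018), and SCLY to PPM1G (0.014), DAZAP1 (0.019) and ETV4 (0.020). SEPHS1 was nearest to CTNNA1 (0.0088), PGRMC1 (0.010) and CREB3L1 (0.012). PSTK was nearest to SRSF5 (0.035), SDR39U1 (0.045) and IL32 (0.052), and SEPSECS to AP1AR (0.055), ZNF445 (0.060) and TTC14 (0.060). PSTK and SEPSECS were themselves below 10 CPM in every library, with at most 131 and 218 counts, so counting noise weighs more in their distances. Transcript length was not matched in this search, and its part in the likenesses was not tested.

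The wider selenium pathway was described with lists of named genes, also chosen with earlier results of these data known. Of 25 selenoprotein genes, 23 had a row and 19 were tested, and 13 of these were called in SS against control, 10 higher and 3 lower (68.4%, against 40.0% of all tested genes), with a median of 0.22. SELENOM (0.65, edgeR adjusted p = 0.000939) and the lipid peroxidase GPX4 (0.60, edgeR adjusted p = 0.00029) rose, and the deiodinase DIO2 (-1.03, edgeR adjusted p = 0.0230) and SELENOI (-0.69, edgeR adjusted p = 0.000226) fell. With the length term 0 of the 19 were called, with 5 at an unadjusted p under 0.05, against 9.23% of all tested genes. Without the length term, the count fell without control replicate 1, control replicate 2 or SS replicate 2, and the number of all genes called fell in these fits too. The call of DIO2 was lost without control replicate 2 or SS replicate 2, and its value ranged from -1.24 to -0.74 when a library was left out. In SS+NAC against control 1 was called, the thioredoxin reductase TXNRD1, at 1.19 (SE 0.08, edgeR adjusted p = 1.64e-05) in the fit without the length term and 1.19 with it. In SS+NAC against SS 14 were called, 3 higher and 11 lower (73.7%, against 42.7% of all tested genes). Fewer were called without SS replicate 2, where the number of all genes called fell too. The fit with the length term called 5 (26.3%, against 14.4%). Without that term TXNRD1 was at 1.25 (edgeR adjusted p = 1.93e-05) and SELENOI at 0.82 (edgeR adjusted p = 0.000148), while GPX1 and TXNRD2, the lowest values, were both at -0.53 (edgeR adjusted p = 0.00333 and 0.00359). With it they were at 1.08, 0.36, -0.14 and -0.41, and GPX1 was not called (edgeR adjusted p = 0.296).

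The counts of the smaller lists stand beside 40.0%, 2.01% and 42.7% of all tested genes called in SS against control, SS+NAC against control and SS+NAC against SS, or 9.23%, 2.01% and 14.4% with the length term. Of 8 accessory genes, which act in charging or modifying the transfer RNA or in SECIS binding and include SEPHS2, also counted among the selenoproteins, 6 were called in SS against control, 4 higher and 2 lower, then 0 in SS+NAC against control (0 at an unadjusted p under 0.05 in edgeR) and 5 in SS+NAC against SS, with medians of 0.15, -0.04 and -0.14. With the length term the counts were 1, 0 and 3. The gene called in SS with that term was ALKBH8, which modifies the wobble base of the selenocysteine transfer RNA: it was at 10.2 and 10.4 CPM in control, 6.27 and 6.57 in SS, and 9.60 and 11.6 in SS+NAC. ALKBH8 fell by 0.69 in SS (SE 0.14, edgeR adjusted p = 0.00300) and by 0.53 with the length term (edgeR adjusted p = 0.0359). The accessory count in SS was lower without control replicate 1 or SS replicate 2, where the number of all genes called fell too. Of 7 selenium supply genes 6 were tested, and 2, 3 and 4 were called in the 3 comparisons, or 0, 3 and 4 with the length term. CTH, which cleaves cystathionine and selenocystathionine, was at 3.44 and 3.57 CPM in control, 3.62 and 3.79 in SS, and 10.8 and 11.7 in SS+NAC. CTH was 1.68 higher in SS+NAC than in control (SE 0.14, edgeR adjusted p = 0.000134), and LRP8, the receptor for selenoprotein P, was 0.65 higher (SE 0.08, edgeR adjusted p = 0.00154). Of 6 general elongation and termination factors, 1, 0 and 1 were called, or 2, 0 and 2 with the length term. Without that term the gene was EEF1A2 in both comparisons, and its call was lost in some of the fits that left out a library. Its values in those fits were 0.27 to 0.43 in SS against control and -0.50 to -0.22 in SS+NAC against SS. Of 10 genes of RNA surveillance and of the removal of truncated selenoproteins, 6 were called in SS against control, 0 higher and 6 lower, with SMG1 at -0.96 (SE 0.08, edgeR adjusted p = 4.69e-05), then 0 (1 at an unadjusted p under 0.05 in edgeR) and 4, which is 40.0% of the list and near the share of all tested genes. The surveillance count in SS was lower without control replicate 2, as was the number of all genes called. With the length term these counts were 1, 0 and 1, and SMG1 was at -0.31 (edgeR adjusted p = 0.0189).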

How the data were processed

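Single-end reads of polyadenylated RNA had been mapped by the authors (HISAT2 2.0.4, Bowtie2 2.2.5 and RSEM 1.2.12 in the submitters' processing notes) and counted with RSEM. The deposited table holds the authors' expected counts per gene, which were rounded to whole numbers and tested. It also holds TPM values computed by the authors, used for levels between genes. The deposited FPKM values of the authors were used to derive the effective length of each gene as counts over FPKM and total. Columns of group means and of the authors' own comparisons (log2 fold changes, p-values and q-values) were not used.

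The 7 members and the lists were chosen with earlier results of these data known. EdgeR 4.0.16 (R 4.3.3) with TMM and filterByExpr kept 14005 genes, and all 6 libraries were fitted in 1 quasi-likelihood model with Benjamini-Hochberg adjustment. The fit was also run on simulated data. Those data held larger changes than that of any member and no trend with length, so they do not test calls of the members' size. The biological coefficient of variation was 6.74%. Replicates differed by more than sampling noise (chi-square per degree of freedom 3.16, 7.45 and 12.3 in control, SS and SS+NAC). The length term was a lowess curve (span 0.3) of each library's log2 CPM deviations on log length, added as an offset. Genes named besides the members came from the called genes of each list with the largest changes, at most 3 in each direction, or 2 for the last 2 lists. The paralogs SEPHS2 and SECISBP2L in all comparisons, and the markers called in SS against control, were followed after their values were seen, and the 3 nearest profiles were taken. Where fewer are printed, the others were left out for length. ALKBH8 was singled out after its values were seen. The alternatives were DESeq2 1.42.0 (size factors and Wald test), limma 3.58.1 on log2(TPM + 0.5), a stricter and a looser count filter, fits of only the libraries compared, a block for replicate number, the length term with and without that block, and omission of each library. Gene positions and exon overlaps came from GENCODE release 29 (GRCh38), and promoters from RefSeq (GRCh38.p14). An item among the marker genes is not reported here.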

Additional observations from a re-analysis of the deposited data

How the results depend on the processing

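Of 21 member results (7 genes, 3 comparisons), 21 kept direction and side of the threshold under DESeq2 size factors, both other count filters and fits of the compared libraries only, and 20 under the DESeq2 test. The length term kept 12, the length term with the block 10, limma on TPM 9, and omission of control replicate 1, control replicate 2 and SS replicate 2 kept 16, 18 and 17. In SS against control and SS+NAC against SS, the length term left 1292 and 2019 called genes, 0 and 2 members, 0 and 5 selenoproteins, and 1 and 3 accessory factors. With a block for replicate number as well these were 851 and 1366, 0 and 0, 0 and 4, and 0 and 1. The replicate numbers did not pair the libraries: differences between replicates correlated at 0.11 (control and SS), -0.11 (control and SS+NAC) and -0.17 (SS and SS+NAC). The block alone left 4857, 211 and 5136 called genes and 4, 0 and 4 members in the 3 comparisons, without SCLY in SS+NAC against SS (edgeR adjusted p = 0.0541). Limma on TPM called 2 and 3 members, 8 and 4 selenoproteins, and 150 genes in SS+NAC against control. Leaving out a library, with the lone library assumed to vary like the other groups, gave 3118 to 6579, 98 to 1086 and 3250 to 6339 called genes in SS against control, SS+NAC against control and SS+NAC against SS. Called members were 1 to 4, 0 to 0 and 3 to 5, selenoproteins 6 to 15, 1 to 2 and 8 to 13, and accessory factors 2 to 6, 0 to 1 and 5 to 6. Among the genes and comparisons followed under every alternative, log2 fold changes that turned sign were, with the length term without and with the block, PSTK in SS+NAC against SS (0.017, 0.020; 0.014 on TPM), SEPSECS in SS against control (0.028, 0.030), SELENOM in SS+NAC against SS (0.047, 0.048) and RPL30 in SS against control (-0.092, -0.092) and SS+NAC against SS (0.054, 0.054). On TPM they were SEPHS1 in the 3 comparisons (-0.12, 0.066, 0.19), SCLY in SS against control (-0.15) and SS+NAC against SS (0.041), SEPHS2 in SS against control (-0.070) and KLHDC3 in SS+NAC against SS (0.079). TPM also moved the median of all genes by -0.22, 0.05 and 0.30; relative to it SEPHS1 stood at 0.10, 0.02 and -0.11, SCLY at 0.07 and -0.26, SEPHS2 at 0.15 and KLHDC3 at -0.22, so only SEPHS1 in SS+NAC against control kept the turned sign. In SS+NAC against control, TRNAU1AP was -0.043 without control replicate 1 and ranged up to 0.15, and SECISBP2L was -0.10 without SS+NAC replicate 2 and 0.39 without SS+NAC replicate 1. By median TPM over the 6 libraries, 4 of 7 members kept their control rank. The cause was not tested. With 2 libraries in a group, and 67 to 131 counts for PSTK, small differences may go uncalled, and no detection limit was measured.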
